A study of Mus musculus with 4 samples.

Results

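The V segments of the immunoglobulin heavy chain locus (Igh) were examined in thymocytes, cells of the T lineage that do not normally build a heavy chain. The members were chosen by position and name: every segment whose symbol starts with Ighv in chr12:113572929-116009954 (mm10), which gave 183 of the 49943 genes of the gene table. Of the 183, 120 are annotated as V segments and 63 as pseudogenes, in 16 families given by the number after Ighv. The assay was ATAC-seq, where a transposase inserts adapters into open DNA, on 4 thymus samples. DP cells (CD4+CD8+ double positive) were sorted for 2 samples, DP 1 and DP 2. DN cells (CD4-CD8- double negative, sorted as CD25+CD44-/+) gave the other 2, DN 1 and DN 2. The mice were all wild type, of the strain C57BL/6J and between 5 and 7 weeks of age, and no transgene or treatment is named. Whether the samples of a group are from different mice is not stated, and their spread may therefore be technical.

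The heavy chain gene is assembled from V, D and J segments. In developing B cells a D segment is first joined to a J segment, and then a V segment to the joined pair. Each V segment carries a recombination signal on its side facing the D segments and a promoter on the other side. In T lineage cells D to J joints of this locus are known to occur, while joining of a V segment is largely kept to B cells. The largest family, Ighv1, fills the distal part together with Ighv8, while Ighv2 and Ighv5 lie nearest to the D segments.

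The 4 lists held 39718 and 70385 peaks for DP 1 and DP 2, and 38808 and 33131 peaks for DN 1 and DN 2. Read counts and depth are not in the lists, and a site absent from one may be closed or may have had too few reads. A peak also cannot tell few cells with an open site from many cells with a partly open one. Markers of the DP sort separated the groups: both DP lists and neither DN list had a peak at most 1000 bp from a gene end of Cd4, Cd8a and Cd8b1. Markers of the DN sort did not separate the groups: of 4, DP 1 and DP 2 held 2 and 4, and DN 1 and DN 2 held 3 and 1. None was held by both DN lists and neither DP list, and Il2ra, which encodes CD25, was held by DP 2 and DN 1. Of 8 pan-T genes 7 and 8 were held by the DP lists, and 2 by each DN list. Lck, Thy1, Cd3g and Cd3d had the pattern of Cd4, held by both DP lists and neither DN list. That pattern is therefore not particular to markers of the DP sort.

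Ighv segments were held mainly by the DP lists. A segment was held when a peak overlapped it or lay within 500 bp. DP 1 held 51 segments and DP 2 held 61, against 11 in DN 1 and 5 in DN 2. The groups did not overlap, with means of 56 ± 7.07 in DP and 8 ± 4.24 in DN (SD, n = 2 each), a 7-fold ratio. The exact two-sided permutation test gave p = 0.333, the smallest that the 3 splits of 4 lists allow, so the design cannot reach 0.05. Over the whole interval DP 1 and DP 2 had 103 and 137 peaks, against 14 and 8 in DN 1 and DN 2 (exact permutation p = 0.333). These peaks covered 1.96 and 2.52% of the interval in DP and 0.248 and 0.144% in DN. Scaled to the length of each list, the interval took 25.9 and 19.5 of every 10000 peaks in DP and 3.61 and 2.41 in DN, so the longer DP 2 list was not the higher one on this scale.

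**Figure D1:**
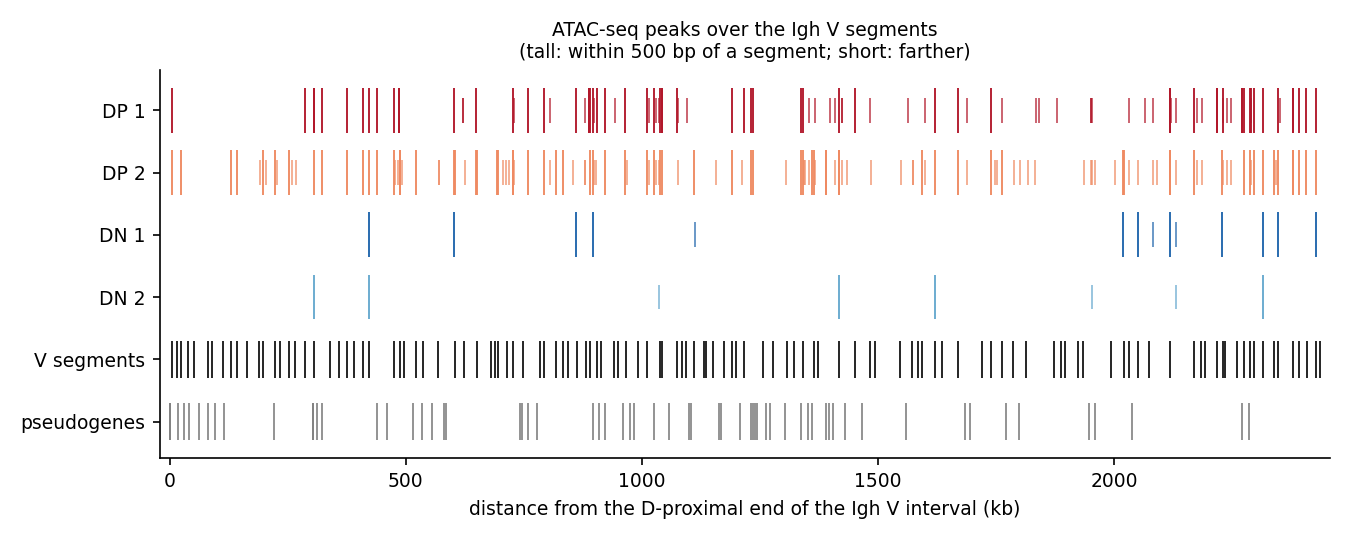
Peaks of DP 1, DP 2, DN 1 and DN 2 (rows) by distance in kb from the D-proximal end of the Igh V interval, above the positions of the 120 V segments and 63 pseudogenes. Tall ticks are peaks within 500 bp of a segment and short ticks are farther; the DP rows have 103 and 137 ticks, the DN rows 14 and 8.

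By segment, 32 of the 183 (17.5%) were held by both DP lists and neither DN list. The same pattern was found for 6.63% of all genes and for 2.44% of the 7569 genes no longer than the longest Ighv segment, the background nearer in size because the median gene spans 5956 bp and the median Ighv segment 294 bp. The opposite pattern, both DN lists and neither DP list, was found for 0 Ighv segments and for 0.801% of all genes. Both DP lists held 43 segments (23.5%), against 31.8% of all genes and 6.80% of the short ones. A DN list held 14 segments (7.65%), against 32.4% of all genes and 6.86% of the short ones. No list held 113 segments, and 24 were held by 1 DP list and no other, 17 of them by DP 2. The peaks merged into 150 regions in the interval, of which 50 (33.3%) were held by both DP lists and neither DN list. That class, called DP-only here, made up 7.44% of regions across the genome and 7.86% of those on the rest of chromosome 12. Without DP 1 the count was 108 (85.04% of the interval's regions, against 45.8% across the genome), and without DP 2 it was 74 (79.6%, against 26.9%). DN-only regions numbered 0 in the interval and made up 2.51% of regions across the genome.

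B cell genes were checked beside these counts, since B cells open Igh. Of 14 B cell markers, a peak lay at a gene end for 3 and 5 in DP 1 and DP 2, and for 3 and 2 in DN 1 and DN 2. Pax5, Ms4a1, Cd22, Cd72, Blnk, Vpreb1, Igll1 and Fcer2a were held by no list. Cr2 and Ebf1 were held by all 4 lists and Blk by DP 1, DP 2 and DN 1. Cd79a and Cd79b, the signalling chains of the B cell receptor, were held by DP 2 alone. The part of B cells in the Igh peaks was not tested.

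Some starts of long noncoding RNAs lie between the V segments, and the peaks meeting windows at those starts differed although the sequences are alike. Gm30948, Gm30996 and Gm40900 are annotated on the plus strand, and their start windows, 250 bases before to 50 after the start (RefSeq, GRCm38.p6, the same build as mm10), are shown because they are near copies of each other. Capitals mark the longest run, 50 bases, that all 3 share.
Gm40900, chr12:115703580-115703879, plus strand: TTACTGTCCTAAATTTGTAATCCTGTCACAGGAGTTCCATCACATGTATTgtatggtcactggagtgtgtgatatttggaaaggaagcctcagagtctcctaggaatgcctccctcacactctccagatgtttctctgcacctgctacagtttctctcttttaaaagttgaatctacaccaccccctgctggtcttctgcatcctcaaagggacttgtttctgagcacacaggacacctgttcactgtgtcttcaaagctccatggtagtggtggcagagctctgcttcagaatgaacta
Gm30948, chr12:115262401-115262700, plus strand: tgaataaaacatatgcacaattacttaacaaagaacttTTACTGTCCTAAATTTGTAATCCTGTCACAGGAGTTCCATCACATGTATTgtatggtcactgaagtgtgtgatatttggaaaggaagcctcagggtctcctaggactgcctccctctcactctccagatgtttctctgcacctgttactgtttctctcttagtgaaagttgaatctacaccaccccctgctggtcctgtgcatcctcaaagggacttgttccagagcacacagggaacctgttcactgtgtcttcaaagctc
Gm30996, chr12:115407364-115407663, plus strand: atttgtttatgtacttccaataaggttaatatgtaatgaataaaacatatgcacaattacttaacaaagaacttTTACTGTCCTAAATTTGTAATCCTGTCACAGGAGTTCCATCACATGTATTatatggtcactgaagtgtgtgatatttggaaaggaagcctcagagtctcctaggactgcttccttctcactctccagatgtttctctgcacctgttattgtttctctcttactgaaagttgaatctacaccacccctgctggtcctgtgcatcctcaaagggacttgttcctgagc

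By local alignment the 3 windows were 93.0 to 97.0% identical over 227 to 265 positions. The Gm40900 window lay inside a region held by all 4 lists (chr12:115703451-115704100), 1 of 3 such regions among the 150 of the interval. Its peak ranked at 22.9 and 2.23% of the DP 1 and DP 2 lists and at 25.9 and 20.1% of the DN 1 and DN 2 lists. The rank is the position of a peak's p-value within its own list, as a percentage, with low values for the strongest peaks; the p-values are the authors' own. The Gm30948 window lay inside a DP-only region (chr12:115262351-115262950), at 46.2% in DP 1 and 18.3% in DP 2. The Gm30996 window met no peak in any list, but a DP 1 peak (chr12:115407701-115408000, rank 64.0%) lay just past its end. The shared run starts at a different place in each window, so the windows do not cover the same part of the alike sequence. The difference between the 3 windows therefore depends in part on where they were cut. Reads from copies this alike can be hard to place, and how such reads were treated is not given in the sources used here. Segments of 1 family, Ighv1 above all, are also known to resemble each other, so the same limit holds for the family, pseudogene and single segment values that follow. Of the other 2 starts of the interval in the table, Gm40899, whose window overlaps Ighv1-23, shared 57 bases with a DP-only region, through its DP 1 peak alone, and Gm51964 met none. The octamer ATGCAAAT, known from immunoglobulin promoters, was searched on both strands of the 5 windows and matched in 0, and matches in 1.74% of all 32851 windows of the table. The heptamer CACAGTG, the first part of a recombination signal, matched in 3 windows (Gm40899, Gm30948 and Gm40900) and in 6.81% of all windows. The Gm40899 match directly adjoins Ighv1-23 on its side facing the D segments. The Gm30948 and Gm40900 matches lie in near copies, and the Gm30996 window ends before the matching position. The 3 matches are therefore not independent and cannot be read as an excess over all windows.

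Segments with a peak were sparse at the D-proximal end and dense at the far end, with no steady rise between. From 1706 to 1950 kb, for example, DP 1 and DP 2 held 1 and 2 of 13 segments. In the first 244 kb from the D segments, which hold 25 segments, 15 of Ighv5 and 9 of Ighv2 among them, DP 1 held 1 segment and DP 2 held 6, against 0 in each DN list. The segment held there by both DP lists was Ighv5-2 (chr12:113578504-113578990), the most D-proximal one annotated as a V segment. Its peaks ranked at 64.0% in DP 1 and 53.0% in DP 2, which is in the weaker part of both lists. After it came 27 neighbouring segments, Ighv2-2 to Ighv2-8 over 289 kb, of which none was held by both DP lists (1 by DP 1 and 6 by DP 2). The next 244 kb differed: of 18 segments DP 1 and DP 2 held 9 each, against 1 in DN 1 and 2 in DN 2.

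The distal end was the densest. In the last 244 kb, with 17 segments, DP 1 and DP 2 held 12 and 11, against 4 in DN 1 and 1 in DN 2, and both DP lists held 10. Pseudogenes are 2 of these 17 segments and 10 of the 25 in the first 244 kb. The part of segment type in the difference between the ends was not tested. The longest run of neighbours held by both DP lists, 5 segments from Ighv1-81 to Ighv1-85 (chr12:115920279-116000321), lies here. The outermost segment, Ighv1-86, was held by no list, with the nearest peak of the interval 9208 bp away in DP 1 and 9258 bp in DP 2. It ends where the interval ends, and peaks beyond that end were not used for it. The longest run held by no list spanned 12 segments, Ighv1-60 to Ighv8-11 (223 kb), and 8 of them are annotated as V segments. With the segments cut by order into 3 groups of 61, both DP lists held 12, 15 and 16 from proximal to distal. The far group exceeded the near one by 6.56 percentage points, against an SD of 5.80 between the 2 DP lists for the same difference, so this broad gradient was close to the spread between lists.

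**Figure D2:**
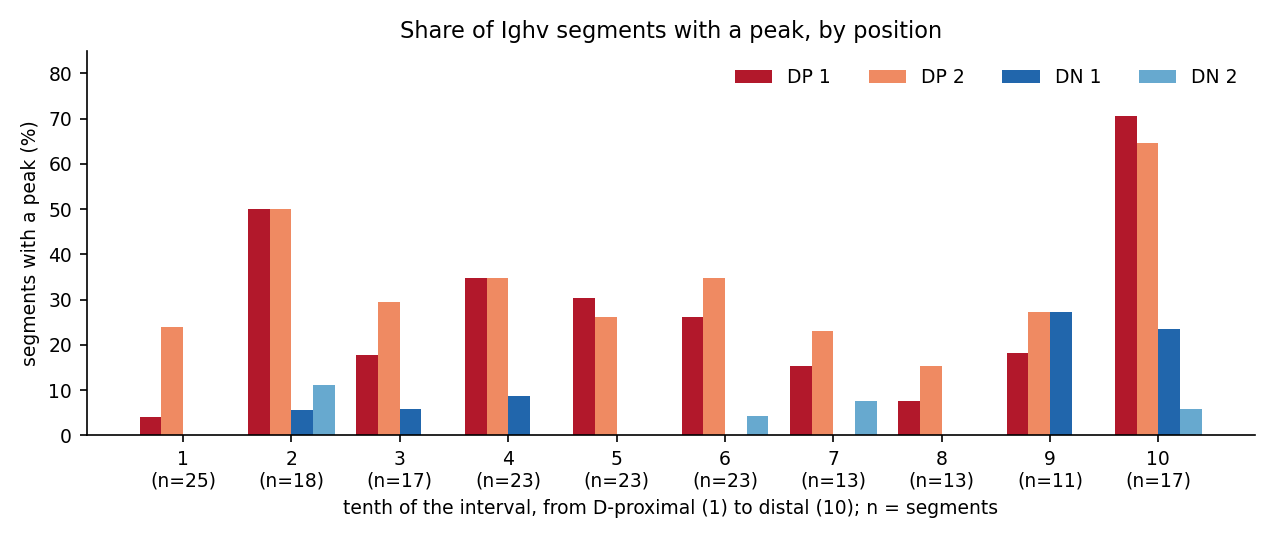
Share of Ighv segments with a peak (y axis, %) in DP 1, DP 2, DN 1 and DN 2 (bars) for 10 stretches of equal length from the D-proximal end (1) to the distal end (10), with the number of segments under each. The DP bars reach 70.6 and 64.7% in the last stretch, and are 4 and 24% in the first.

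The families differed in the share held. In Ighv1, the largest, DP 1 and DP 2 held 30 and 34 of 92 segments, against 8 and 3 in DN 1 and DN 2, and both DP lists held 27 (29.3%). In Ighv8, interspersed among Ighv1 segments except for Ighv8-1, DP 1 and DP 2 held 4 and 3 of 16, against 0 in each DN list. Both DP lists held 2, Ighv8-1 and Ighv8-2, which are the most D-proximal of the family. At Ighv8-2 the DP 1 and DP 2 peaks did not overlap each other. The proximal families were lower: of 11 Ighv2 segments DP 1 and DP 2 held 1 and 4, against 0 and 1 in DN 1 and DN 2, and of 21 Ighv5 segments 2 and 4, against 0 and 0. Both DP lists held 1 segment in each of them, Ighv2-9 and Ighv5-2. None of the 8 Ighv3 segments was held by any list.

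The other families are small and ranged from all segments held to none. Both Ighv4 and both Ighv11 segments were held by both DP lists and neither DN list. Of 4 Ighv14 segments 3 were held by both DP lists, of which Ighv14-2 was also held by both DN lists and Ighv14-4 by DN 1. Both DP lists held 2 of 4 Ighv7 segments, 1 of 4 each in Ighv9 and Ighv10, 1 of 3 in Ighv12, and 0 of 7, 2, 2 and 1 in Ighv6, Ighv13, Ighv15 and Ighv16. These families, leaving out Ighv3, have 1 to 7 segments, and Ighv4, Ighv11 and Ighv14 are neighbours. In the same stretch Ighv3-1 lies between Ighv4-1 and Ighv11-1, and the pseudogene Ighv3-2 between Ighv4-2 and Ighv11-2. No list held Ighv3-1 or Ighv3-2. The parts of family and of stretch of the locus in these shares were not tested.

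**Figure D3:**
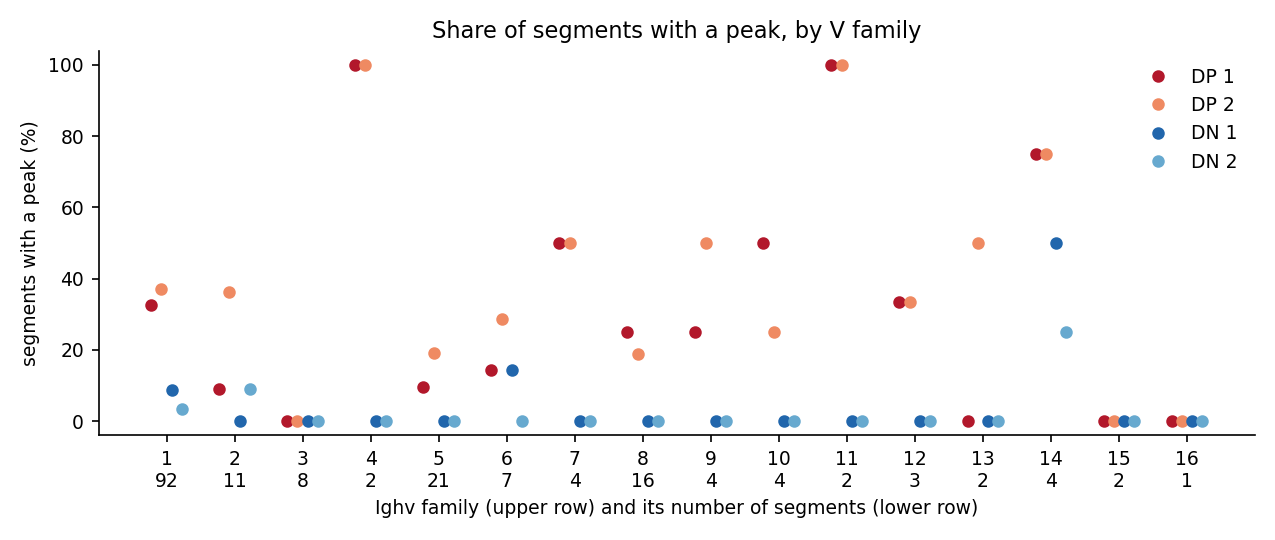
Share of segments with a peak (y axis, %) in each V family (x axis, with its number of segments below) for DP 1, DP 2, DN 1 and DN 2 (points). Families 4 and 11 are at 100% in both DP lists with 2 segments each, family 1 is at 32.6 and 37.0% with 92, and family 3 is at 0.

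Annotated V segments were held more often than pseudogenes. DP 1 and DP 2 held 41 and 50 of 120 V segments (34.2 and 41.7%), and 10 and 11 of 63 pseudogenes (15.9 and 17.5%). In DN 1 and DN 2 these counts were 10 and 5 V segments, and 1 and 0 pseudogenes. Both DP lists held 28.3% of V segments and 14.3% of pseudogenes, a difference of 14.05 percentage points. The difference appeared within Ighv1, with 22 of 60 V segments and 5 of 32 pseudogenes. It also appeared in the distal group of 61 segments, with 16 of 46 V segments and 0 of 15 pseudogenes, and in the proximal group, with 10 of 39 and 2 of 22. In the middle group the order was the other way, with 8 of 35 V segments (22.9%) and 7 of 26 pseudogenes (26.9%). Segments are not replicates, so no test was made. Without DP 1 the difference was 24.2 percentage points, and with each list limited to at most the shortest length, ties at the limit left out, it was 9.64.

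Of the 20 leading DP-only segments by mean rank in the DP lists, 13 were of Ighv1. This is near its share of the whole class, 19 of 32 DP-only segments. Ighv1-12 (chr12:114615850-114616143), a V segment, led with ranks of 3.20 and 5.33% in DP 1 and DP 2. In DP 1 its peaks had the smallest p-value of the list, 1e-12, which 4 peaks of the interval share, 2 of them at Ighv1-12. Tied peaks were given their mean rank, so 3.20% stands for a large set of tied peaks across the list. Its neighbours Ighv1-9, Ighv1-10 and Ighv1-11 were also DP-only, with ranks of 17.8 and 7.96% for the pseudogene Ighv1-10. Next in the order came Ighv1-82 at 21.5 and 7.59%, Ighv1-78 at 24.0 and 9.13% and Ighv1-77 at 21.5 and 16.9%, all in the distal part. The best outside Ighv1 were Ighv11-1 (chr12:113981879-113982174) at 30.9 and 7.59% and Ighv9-4 at 17.8 and 24.0%. Also among the leading 20 were Ighv1-76, Ighv1-27, Ighv1-39, Ighv4-2, Ighv1-7, Ighv4-1, Ighv1-58, Ighv7-1, Ighv11-2, Ighv7-4 and Ighv1-38. Their mean ranks ran to 41.1%. Of the 20, 15 are V segments and 5 pseudogenes, the same share as the 24 and 8 among all DP-only segments.

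Of the 14 segments held by a DN list, both DP lists held 11 (78.6%). That share is near the background: of all genes held by a DN list 77.6% were also held by both DP lists, and of the short genes 63.6%. Ighv14-2 (chr12:113994469-113994898) and Ighv1-79 (chr12:115888096-115888389) were held by all 4 lists. Ighv1-79 had ranks of 24.0 and 10.2% in DP 1 and DP 2, and 35.4 and 16.7% in DN 1 and DN 2. DN 1 also held Ighv14-4, Ighv1-2, Ighv1-70, Ighv1-74, Ighv1-81 and Ighv1-85 beside both DP lists, and DN 2 held Ighv2-9, Ighv1-47 and Ighv1-54. Ighv6-6 was held by DP 1 and DN 1, and Ighv1-66 by DP 2 and DN 1. Ighv1-69 was held by DN 1 alone, at a rank of 82.3%, with a DP 2 peak 555 bp away. Ranks were also compared among the 43 segments held by both DP lists. In DP 2 the median rank was 12.5% for those also held by a DN list (n = 11), and 25.8% for those held by no DN list (n = 32). In DP 1 both medians were 33.8%, so DP 1 did not show this difference. Of the 14 Igh peaks of DN 1 and the 8 of DN 2, none was in the strongest 10% of its list. In DP 1 there were 8 of 103 (7.77%) and in DP 2 16 of 137 (11.7%), near the 10% that the whole lists hold. The DN peaks are too few to tell their share from this level.

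Peak midpoints were mostly displaced from the segment midpoints toward the D segments, though many still lay inside the segment. Among peaks within 500 bp, the midpoint lay on that side of the segment's midpoint for 52 of 62 in DP 1 and 58 of 72 in DP 2, and for 11 of 11 in DN 1 and 5 of 5 in DN 2. The median displacement was -158 and -162 bp in DP 1 and DP 2, and -175 and -121 bp in DN 1 and DN 2, negative toward D. Inside the segment lay 25 and 25 midpoints in DP 1 and DP 2, and 5 and 4 in DN 1 and DN 2. Beyond its edge facing D lay 30 and 39 in DP 1 and DP 2, and 6 and 1 in DN 1 and DN 2. Of the 30 DP-only regions within 500 bp of a segment, 29 were displaced this way. The centring of the lists was checked on transcription starts of the genome: averaged over both strands, the nearest peaks lay at -24.5 bp in each DP list, and at -21.5 and -20.5 bp in DN 1 and DN 2, in the same coordinate direction. The displacement at Ighv was thus larger than this general one, and with midpoints moved back by it the DP share toward D was 79.2%, against 82.2% as measured. Among the stronger peaks, the best 50% of each list with ties at the limit left out (49.1 and 44.5% of DP 1 and DP 2 were kept), the share was 96.0%.

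**Figure D4:**
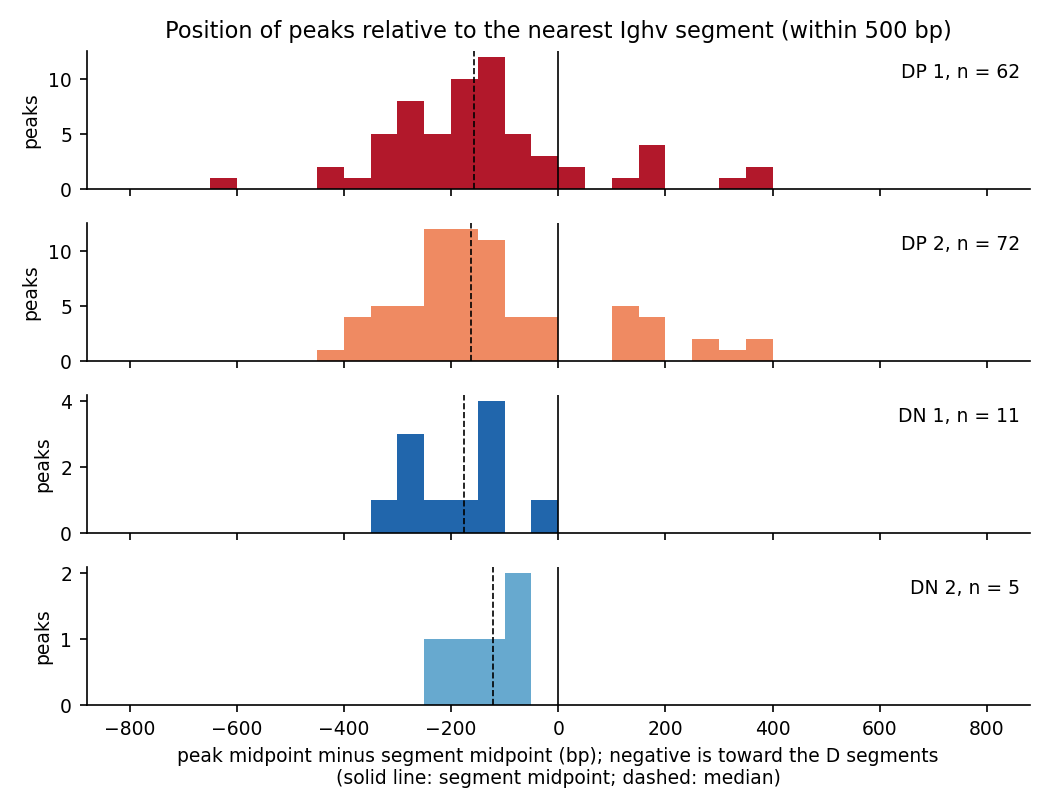
Number of peaks (y axis) by distance of the peak midpoint from the midpoint of the nearest Ighv segment in bp (x axis, 50 bp bins, negative toward the D segments), for peaks within 500 bp in DP 1, DP 2, DN 1 and DN 2. Dashed lines mark the medians, between -121 and -175 bp.

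Part of the peaks lay away from any segment. More than 500 bp from the nearest one were 41 and 65 peaks in DP 1 and DP 2, and 3 in each DN list. Of the 50 DP-only regions 20 were of this kind, at 521 to 11832 bp from a segment (median 3327 bp). The best ranked of them, chr12:114587101-114587750, lay 3239 bp from Ighv1-9 and had ranks of 9.93 and 10.7% in DP 1 and DP 2. It was followed by chr12:114650301-114650900 near Ighv1-14 (24.0 and 9.13%) and chr12:114378651-114379400, 11832 bp from Ighv12-3 (30.9 and 4.73%). The fourth and the fifth were chr12:115604801-115605400 and chr12:115171651-115172300. No other annotated gene lay within 500 bp of these 5 regions.

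Against V segments of other receptor loci measured the same way, Ighv was near the alpha and delta chain V segments (Trav and Trdv), of which DP 1 and DP 2 held 25 and 36 of 136 (18.4 and 26.5%) and DN 1 and DN 2 held 4 and 1. Of 162 kappa light chain V segments (Igkv), DP 1 and DP 2 held 2 and 4, and each DN list held 4. Of 35 Trbv segments, DP 1 and DP 2 held 5 and 9, against 14 and 12 in DN 1 and DN 2. The DP minus DN share of Ighv exceeded that of Igkv by 26.8, that of Trbv by 43.4 and that of Trav with Trdv by 5.64 percentage points, each at the exact permutation p of 0.333 that 4 lists allow. The class held by both DP lists and neither DN list made up 4.67% of the 364 V segments outside Ighv, with 16 of those 17 in Trav and Trdv, where its share was 11.8% of 136.

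**Figure D5:**
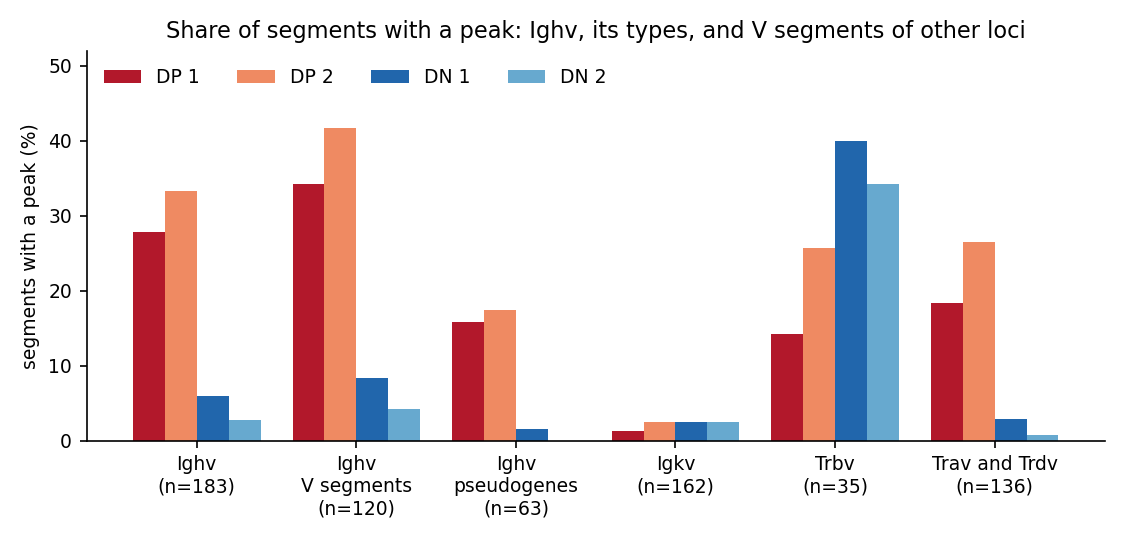
Share of segments with a peak (y axis, %) in DP 1, DP 2, DN 1 and DN 2 (bars) for all Ighv segments, Ighv V segments, Ighv pseudogenes, and V segments of the kappa, beta, and alpha with delta loci. Ighv stands at 27.9 and 33.3% in the DP lists and at 6.01 and 2.73% in the DN lists, and Igkv between 1.23 and 2.47% in all 4.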

How the data were processed

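ATAC-seq peak lists of 4 thymocyte samples were used. Per the submitters' processing notes, reads were mapped to mm10, and Bowtie2 and Picard are named without version or role; the list names point to PeakDEck, while its settings and how duplicate and multiply mapped reads were handled were not stated in the sources. Each deposited list gives one p-value per peak, computed by the authors, which served here for ranking and filtering inside its list. The narrowest peak spans 300 bp, and starts fall on 50 bp steps. Depth is unknown, so no counting intervals were computed.

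Gene positions came from a RefSeq table of GRCm38.p6 without strand. Only peaks with a midpoint in the interval were used for Ighv; 1 V segment of the interval named Gm7003 is no Ighv and was left out. Peaks sharing at least 1 bp were merged into regions. Groups were compared over samples with exact two-sided permutation tests; segments are not replicates and were described only. Named segments were those in a DN list, the 20 leading DP-only ones by mean rank, the 3 at each end, the longest runs and the 5 leading DP-only regions farther than 500 bp. The members, lists and markers were chosen with earlier results of these data known. The side facing D, the alignment and the centring check were added after the data were examined. Promoter windows came from RefSeq; a genome sequence was not used here, so the planned motif search in segments and regions was not run. Single values of 2 marker genes are not reported here. The functions were tested on simulated lists. Python 3.11.15, numpy 2.4.6, pandas 2.3.3 and matplotlib 3.10.9 were used.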

Additional observations from a re-analysis of the deposited data

How the results depend on the processing

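Of 78 recomputed values 0 turned round. Differences with a group test were labelled by direction and p-value only, so no limit on size was applied to them. Among these, the difference in peaks fell from 109 to 58.5 (best 50% of each list) and to 65.5 (lists limited to the shortest length). For the other results 12 values moved, DP-only counts by more than 1.5 times or shares by more than the SD between the DP lists. Limiting lists left out ties at the limit, so the best 50% kept 49.1, 44.5, 48.0 and 36.8% of DP 1, DP 2, DN 1 and DN 2, and limiting to the shortest length left 28151, 31327, 25056 and 33131 peaks. Peaks, peaks per 10000, coverage and segments with a peak stayed higher in DP under every alternative run; the smallest differences were 58.5 peaks (best 50% of each list), 16.5 per 10000 (without DP 1), 1.42% (best 50%) and 33 segments (best 50%), all at the exact p of 0.333. Leaving out each list gave 92 to 126 peaks, 16.5 to 22.9 per 10000, 1.76 to 2.33%, 43 to 53 segments, 35 to 49 DP-only segments against 32, and 55 to 108 DP-only regions against 50. The highest 2 counts came without DP 1, when DP 2 alone stood for its group and 45.8% of regions across the genome became DP-only. Other settings gave 23 to 35 DP-only segments and 36 to 53 regions. The distal minus proximal share was 1.64 to 11.5 percentage points, and 1.64 to 9.84 without 1 list. V segments exceeded pseudogenes by 14.05 to 24.2 percentage points without 1 list (24.2 without DP 1, 18.3 without DP 2), by 8.97 without the peaks tied at the largest p-value and by 9.64 with lists limited to at most the shortest length. The DP share of peaks toward D, whose alternatives were chosen after seeing the data, was 86.3% without tied peaks, 96.0% in the best 50%, 93.0% with lists of at most the shortest length, 85.1% for overlapping peaks, 73.9% within 1000 bp, 79.2% after moving midpoints by each list's centring, and 80.6 to 83.9% with 1 DP list. With the replicate number as a block the differences were the same (109 peaks, 19.7 per 10000, 2.05%, 48 segments) at an exact sign-flip p of 0.5, the smallest 2 pairs allow; deviations of DP 1 and DN 1 from their group means correlated at 0.0207 over 107621 regions, so the numbers are not shown to pair the samples. The unknown depth limits every statement on a site that a list lacks.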

Other observations

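The side on which peaks met V segments differed between loci. For the best ranked peak of each held Ighv segment, the midpoint lay toward the D segments for 46 of 51 in DP 1 and 56 of 61 in DP 2. For Trav and Trdv segments it lay toward the J segments for 6 of 25 in DP 1 and 11 of 36 in DP 2, with median displacements toward J of -367 and -368 bp, that is, to the other side. For Trbv segments the counts toward D were 2 of 5 and 4 of 9 in DP 1 and DP 2, and 8 of 14 and 7 of 12 in DN 1 and DN 2. These are values side by side, with no test between loci.

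Around the V interval, the D-J-C part of Igh (chr12:113256204-113572928) had 6 and 10 peaks in DP 1 and DP 2 and 2 and 0 in DN 1 and DN 2. Per Mb, DP 1 and DP 2 had 42.3 and 56.2 peaks in the V interval, against 5.74 and 3.28 in DN 1 and DN 2. In the 500 kb beyond the distal end these values were 44 and 44 in DP, and 18 and 10 in DN. In the 500 kb beyond the D-J-C part they were 74 and 98 in DP, and 24 and 10 in DN, so this flank was denser than the V interval in all 4 lists. Over the rest of chromosome 12 they were 14.3 and 25.8 in DP, and 13.8 and 11.7 in DN.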
